A study of Mus musculus with 24 samples.

Results

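Interferon-stimulated genes are the genes a cell switches on after an interferon binds its receptor, and 42 of them, chosen by symbol, were followed here in mouse cortex with amyloid pathology. Membership required a row in the deposited count table and a mean of at least 0.2 CPM, counts scaled to library size, over the 24 libraries. All 42 of the 42 named genes met both conditions, out of 24421 genes in the table, and all were among the 16316 genes tested. Every mouse carried 5xFAD, a transgene set expressed in neurons from the Thy1 promoter that leads to amyloid deposits, and every mouse was 7.5 months old. The 4 genotypes on that background were WT, with Trem2 and Plcg2 left intact, Trem2KO, Plcg2KO and Plcg2HET, the last labelled heterozygous for Plcg2, with 6 libraries each. WT, Trem2KO and Plcg2HET had 3 males and 3 females, and Plcg2KO had 4 males and 2 females. No mouse without 5xFAD was analysed here. The study's stated interest was the part PLCG2 plays in the response to amyloid.

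Type I interferons bind IFNAR1 and IFNAR2, and type II interferon binds IFNGR1 and IFNGR2. The kinases JAK1 and TYK2 then phosphorylate STAT proteins, and a complex that holds STAT2 and IRF9 binds the interferon-stimulated response element in the promoters of their targets. The targets include enzymes and membrane proteins that block viruses, sensors of foreign nucleic acid, the transcription factors of the pathway itself, and ISG15, a ubiquitin-like protein. In brains with amyloid, a subset of microglia is known to express these genes. TREM2 is a lipid-sensing receptor of microglia, and PLCG2 is a phospholipase that acts downstream of it and of other immune receptors.

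The response element was searched as GAAA, any 2 bases and GAAA, on both strands of RefSeq promoters (GRCm38.p6, 250 bases before to 50 after the start), where 31 of the 42 genes were matched by symbol. It was present in 17 of those 31 (54.8%), against 1131 of 32851 promoters of that length (3.44%), or 3.99% counted by gene. TTCNNNGAA, the palindromic STAT motif, was present in 10 of the 31 (32.3%), against 8.3% of all promoters, or 9.55% counted by gene. Among 63 further interferon-induced genes, the response element was present in 35 (55.6%) and TTCNNNGAA in 7 (11.1%). Its letters can share bases with the first motif. The stretches below lie upstream of the start and are from the 4 genes with the smallest p in Plcg2KO against WT among those lower there and holding the response element. They are Bst2 (chr8:71537527-71537656, minus strand), Rsad2 (chr12:26456503-26456632, minus strand), Oas1a (chr5:120907526-120907599, minus strand) and Stat2 (chr10:128270248-128270345, plus strand). Capitals mark each match to the response element, read 5′ to 3′ along the gene's strand, and matches to TTCNNNGAA are not marked.
Bst2: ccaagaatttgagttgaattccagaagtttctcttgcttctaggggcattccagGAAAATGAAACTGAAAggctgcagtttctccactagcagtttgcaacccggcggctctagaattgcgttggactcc
Rsad2: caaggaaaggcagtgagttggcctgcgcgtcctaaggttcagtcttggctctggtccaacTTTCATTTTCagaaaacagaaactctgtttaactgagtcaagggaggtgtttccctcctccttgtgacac
Oas1a: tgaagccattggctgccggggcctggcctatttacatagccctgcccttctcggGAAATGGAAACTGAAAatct
Stat2: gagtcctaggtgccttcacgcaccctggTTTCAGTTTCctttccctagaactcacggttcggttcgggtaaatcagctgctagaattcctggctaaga
The Bst2 and Oas1a stretches each held 2 overlapping matches to the response element. Rsad2 and Stat2 each held 1 match, on the strand opposite to the gene, so it reads as TTTC first. Of the 17 genes with the response element, 10 were lower in Plcg2KO than in WT, and of the 14 without it, 8 were lower, where 7.63% of all tested genes were lower.

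Total counts per library ran from 43923855 to 71319535 in WT, from 54768477 to 82990818 in Trem2KO, from 49422827 to 81487044 in Plcg2KO and from 36272966 to 68914247 in Plcg2HET. Plcg2 was at a mean of 11.8 CPM in WT and 0.984 CPM in Plcg2KO, which is 8.32% of WT, and Trem2 fell from a mean of 82.5 CPM in WT to 6.01 CPM, or 7.29%, in the mice lacking it. Plcg2 in Plcg2HET was 12.0 CPM, with a log2 fold change of 0.02 ± 0.17 against WT (SE, n = 6 each, edgeR quasi-likelihood adjusted p = 0.951), so the labelled loss of one copy was not seen in the level. Trem2 in Plcg2KO was 19.1 CPM, 23.1% of WT. The ribosomal precursor Rn45s took 29% of the counts of Plcg2HET F3, 9.59% of WT F1 and 5.29% of Plcg2HET F1, and the counts for each comparison with WT or Plcg2HET and between the sexes are also given without these 3 libraries. All 3 were females. The 10 astrocyte markers summed to at least 6940 CPM in every library, so the labelled tissue carries brain markers. In bulk tissue, fewer cells of a type and less RNA per cell cannot be told apart.

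The levels of the genes spanned a wide range. Per kilobase of exon, the highest mean CPM over the 24 libraries was that of Ifi27, at 33.0, followed by Lgals3bp at 28.4, Ifitm3 at 27.0 and Ifit3 at 12.6. Mx1, a GTPase that traps viral nucleocapsids, was lowest at 0.328 CPM per kilobase, below Ifi44 at 0.389 and Gbp4 at 0.492. Exons of Ifi27 and Ifi27l2a overlap on opposite strands, and no source used here gives the strand setting of the counting. How reads in the shared exon bases were assigned is therefore not known. Ifit, Oas, Gbp, Slfn, Trim30, Ifi200 and immunity-related GTPase genes have close paralogs, so the split of reads among them is uncertain. In the second deposited table, of expected counts, the sum over libraries was 120% of the count for Oas1a, 113% for Ifi204 and 112% for Ifit3, against 91.7% for all genes.

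In cortex lacking Plcg2, 26 of the 42 genes were lower than in WT and 0 were higher, where 7.63% of all tested genes were lower, 5.44% higher and 13.1% either. The median log2 fold change of the 42 was -0.60, against -0.00 for all tested genes, and 37 of the 42 lay below 0. Without the sex term in the fit, the median of the 42 was -0.75. CPM levels are not adjusted for sex, and Plcg2KO had 4 males and 2 females against 3 and 3 in WT. All 5 transcription factors were lower, as were 7 of the 8 other interferon-induced genes, 9 of the 16 antiviral effectors and 2 of the 3 genes of the ISG15 system. Among the interferon-inducible GTPases 2 of 7 were lower, and among the sensors 1 of 3. Of the 22 microglia markers, 20 were lower with a median of -1.07, and their summed level ran from 833 to 1382 CPM in Plcg2KO against 1516 to 2617 CPM in WT. Their part in the result was not tested.

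**Figure D1:**
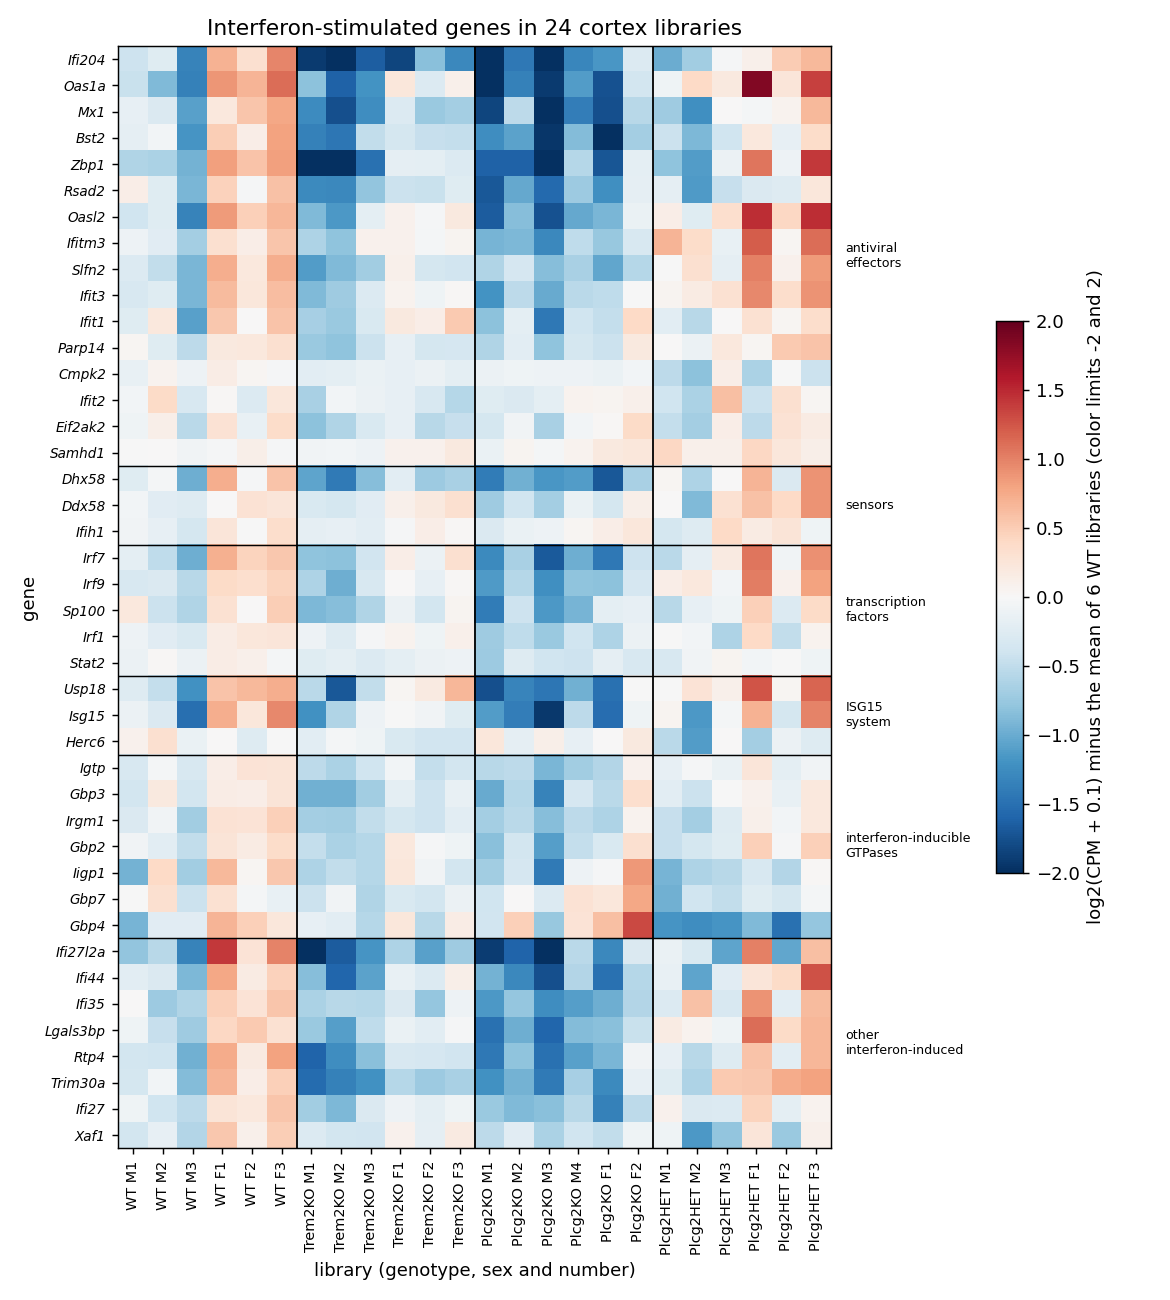
Each column is 1 library and each row 1 of the 42 genes, grouped by role; color gives log2(CPM + 0.1) minus the mean of the 6 WT libraries, with blue lower and red higher. Plcg2KO and Trem2KO columns are mostly blue, WT males are bluer than WT females, and Plcg2HET F1 and F3 are mostly red.

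Lgals3bp, at chr11:118392752-118401931 in mm10, encodes a secreted glycoprotein that binds galectins. Its lowest, median and highest levels were 41.1, 73.1 and 96.9 CPM in WT, and 22.3, 35.5 and 49.1 CPM in Plcg2KO. The 3 WT females and the WT male M1 stood above every Plcg2KO library, and the WT males M2 and M3 lay below the highest Plcg2KO library, F2. The log2 fold change was -0.91 ± 0.14 (SE, n = 6 each, edgeR quasi-likelihood adjusted p = 5.09e-05).

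Among the antiviral effectors, Ifi204, a DNA-binding protein of the interferon-inducible p200 family, had 0.822, 2.34 and 4.45 CPM as lowest, median and highest in WT and 0.285, 0.799 and 1.83 in Plcg2KO. The WT females and the male M2 lay above all of Plcg2KO, and the WT males M1 and M3 lay below the highest Plcg2KO library, F2. The log2 fold change of Ifi204 was -1.38 ± 0.26 (edgeR quasi-likelihood adjusted p = 0.000648). Bst2, or tetherin, which holds budding virus at the cell surface, ran from 3.82 through 8.99 to 15.4 CPM in WT and from 1.63 through 3.88 to 5.40 CPM in Plcg2KO. The WT male M3 was the only WT library of Bst2 inside the Plcg2KO range. The log2 fold change of Bst2 was -1.21 ± 0.25 (edgeR quasi-likelihood adjusted p = 0.00176). Rsad2, or viperin, which makes a chain-terminating nucleotide, had 1.84, 3.72 and 5.43 CPM in WT and 1.03, 1.58 and 3.13 CPM in Plcg2KO, a log2 fold change of -0.98 ± 0.21 (edgeR quasi-likelihood adjusted p = 0.0025). For Rsad2 the Plcg2KO libraries F2 and M4 lay within the WT range and the other Plcg2KO libraries below it.

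The remaining effectors that were lower were Oas1a, which makes the oligoadenylates that activate RNase L (-1.28 ± 0.28), Mx1 (-1.28 ± 0.30), Zbp1, a sensor of Z-form nucleic acid (-1.05 ± 0.35), Oasl2 (-0.89 ± 0.22), Ifitm3, which blocks viral fusion (-0.70 ± 0.19), and Ifit3 (-0.52 ± 0.15), all as log2 fold changes with SE. The effectors with the highest levels per kilobase that did not pass were Cmpk2, a mitochondrial nucleotide kinase encoded next to Rsad2, Samhd1, which destroys deoxynucleotides, and Ifit2. Cmpk2 had 26.4, 29.4 and 32.4 CPM in WT and 26.5, 27.1 and 28.2 in Plcg2KO, a log2 fold change of -0.10 ± 0.11 (edgeR quasi-likelihood adjusted p = 0.632). Samhd1 had 17.5, 18.3 and 20.0 CPM in WT and 16.8, 19.2 and 21.6 in Plcg2KO, with a log2 fold change of 0.09 ± 0.08 (edgeR quasi-likelihood adjusted p = 0.517). Ifit2 had a log2 fold change of -0.09 ± 0.17 (edgeR quasi-likelihood adjusted p = 0.77). The groups overlapped for all 3.

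The 5 transcription factors were each lower. Irf9, the DNA-binding part of the complex with STAT2, had 13.9, 21.4 and 27.9 CPM in WT and 8.75, 11.7 and 16.3 in Plcg2KO, a log2 fold change of -0.70 ± 0.14 (edgeR quasi-likelihood adjusted p = 0.00136). Stat2 had 29.3, 31.8 and 35.4 CPM in WT and 19.2, 24.9 and 28.2 in Plcg2KO. Stat2 was the 1 gene of the 42 with every Plcg2KO library below every WT library, an arrangement found in 4.75% of tested genes, while 0 of the 42 lay wholly above, as 3.86% of tested genes did. The log2 fold change of Stat2 was -0.36 ± 0.08 (edgeR quasi-likelihood adjusted p = 0.00324). Irf7, which amplifies type I interferon production (-0.93 ± 0.22), Sp100, a nuclear body protein (-0.62 ± 0.17), and Irf1 (-0.47 ± 0.13) completed the group, as log2 fold changes with SE.

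Dhx58, which encodes LGP2, a regulator of RIG-I-like RNA sensing, had 1.20, 2.41 and 4.12 CPM in WT and 0.692, 1.07 and 1.53 CPM in Plcg2KO, a log2 fold change of -1.13 ± 0.23 (edgeR quasi-likelihood adjusted p = 0.00154). The RNA sensors themselves did not pass: Ddx58, encoding RIG-I, was at -0.26 ± 0.15 and Ifih1, encoding MDA5, at 0.02 ± 0.11 on the log2 scale. In the ISG15 system, Usp18, which removes ISG15 and restrains the receptor (-1.0 ± 0.25), and Isg15 itself (-0.99 ± 0.31) were lower, while Herc6, the mouse ligase for ISG15, was at 0.02 ± 0.14 and did not pass. Of the GTPases, the immunity-related GTPases Igtp (-0.47 ± 0.12) and Irgm1 (-0.44 ± 0.12) were lower, and none of the 4 guanylate-binding proteins passed.

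Ifi35, which had 2.35, 4.39 and 5.85 CPM in WT and 1.60, 1.87 and 2.60 CPM in Plcg2KO, was lower by a log2 fold change of -0.95 ± 0.20 (edgeR quasi-likelihood adjusted p = 0.00179). Its WT minimum lay below the Plcg2KO maximum. Ifi27, a small mitochondrial membrane protein, had 28.4, 42.9 and 60.2 CPM in WT and 16.1, 23.6 and 28.5 CPM in Plcg2KO, a log2 fold change of -0.74 ± 0.16 (edgeR quasi-likelihood adjusted p = 0.00179). Only the lowest WT and the highest Plcg2KO library of Ifi27 overlapped. Xaf1, an apoptosis adaptor, was the 1 other interferon-induced gene that did not pass, at -0.32 ± 0.17. Within males alone 1 gene of the 42 was lower, Lgals3bp, where 1.89% of all genes tested were lower, so the share was near the background, and 39 of 42 log2 fold changes lay below 0 with a median of -0.50. Within females alone 15 were lower, where 2.96% of all genes were, with a median of -0.79. With the 3 Rn45s-rich libraries left out, 22 of the 42 were lower in Plcg2KO, where 6.64% of all genes were, and Ifit3, Zbp1, Isg15 and Ifi27l2a no longer passed.

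**Figure D2:**
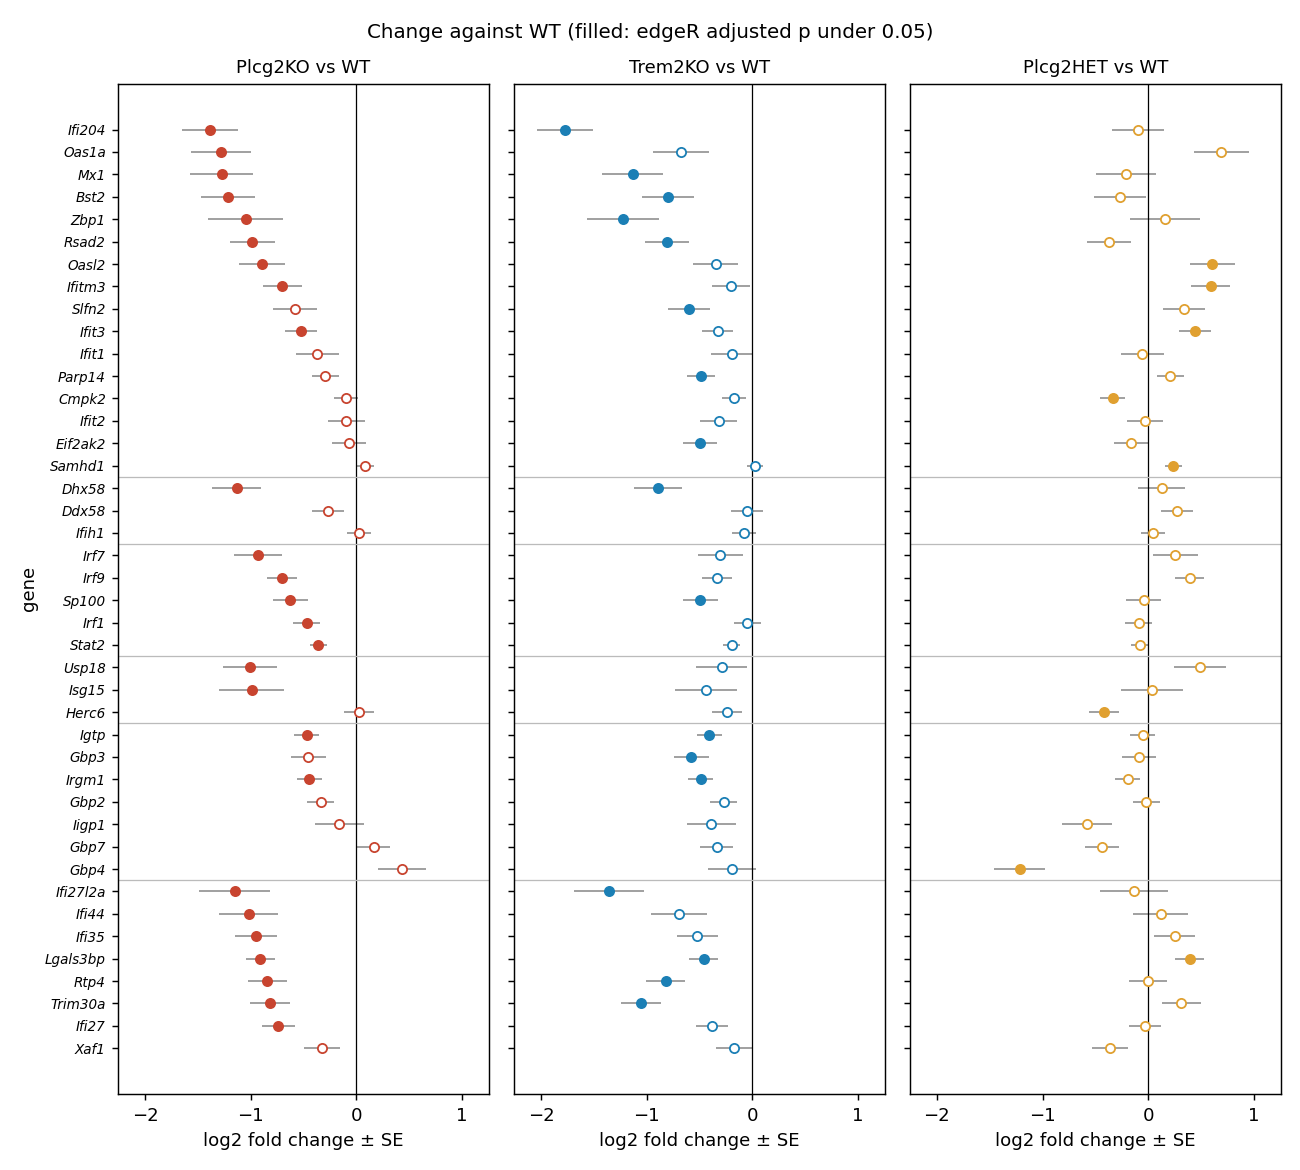
Points give the log2 fold change of each gene against WT and bars its SE, with filled points for an edgeR adjusted p under 0.05, in Plcg2KO, Trem2KO and Plcg2HET on the same axis. All 26 filled points of Plcg2KO and all 17 of Trem2KO lie left of 0, while Plcg2HET has 3 to the left and 5 to the right.

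In cortex lacking Trem2, 17 of the 42 genes were lower than in WT and 0 were higher, where 8.16% of tested genes were lower, 7.56% higher and 15.7% either. The median log2 fold change was -0.40, against -0.02 for all tested genes, and 41 of the 42 lay below 0. This comparison uses the same 6 WT libraries as the one above, so the values of the knockouts are set side by side and not as separate evidence. By role, 8 of 16 antiviral effectors, 4 of 8 other interferon-induced genes, 3 of 7 GTPases, 1 of 5 transcription factors, 1 of 3 sensors and 0 of 3 genes of the ISG15 system were lower. Of the microglia markers, 19 of 22 were lower, with a median of -0.78 and a summed level of 1032 to 1476 CPM; their part in the result was not tested.

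Ifi204 had 0.413, 0.597 and 1.20 CPM as lowest, median and highest in Trem2KO, and its log2 fold change was -1.77 ± 0.26 (SE, n = 6 each, edgeR quasi-likelihood adjusted p = 5.6e-05). The lowest WT library fell inside the Trem2KO range. Trim30a, which dampens NF-kB signaling, had 3.69, 7.02 and 11.0 CPM in WT and 2.29, 3.49 and 4.59 in Trem2KO, a log2 fold change of -1.05 ± 0.19 (edgeR quasi-likelihood adjusted p = 0.000442). Rtp4, a chaperone of membrane receptors, had 3.07, 5.76 and 10.6 CPM in WT and 1.93, 3.97 and 4.84 in Trem2KO, a log2 fold change of -0.82 ± 0.18 (edgeR quasi-likelihood adjusted p = 0.0029). The ranges overlapped at the bottom of WT, at the male M3 for Trim30a and at all 3 males for Rtp4.

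Irgm1, a regulator of autophagy and of the other immunity-related GTPases, had 15.5, 27.2 and 35.0 CPM in WT and 15.5, 18.2 and 21.7 CPM in Trem2KO, with a log2 fold change of -0.49 ± 0.12 (edgeR quasi-likelihood adjusted p = 0.00565). Ifi27l2a had 1.35, 3.40 and 9.72 CPM in WT and 0.780, 1.58 and 2.30 in Trem2KO, a log2 fold change of -1.35 ± 0.33 (edgeR quasi-likelihood adjusted p = 0.00631). The WT spread of Ifi27l2a was wide, and its median exceeded the highest Trem2KO library. Dhx58 was at -0.90 ± 0.23, Mx1 at -1.13 ± 0.29 and Rsad2 at -0.81 ± 0.21 on the log2 scale, and all 3 passed.

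The genes with the highest levels per kilobase that did not pass in Trem2KO were Ifi27 (-0.39 ± 0.15, edgeR quasi-likelihood adjusted p = 0.0834), Ifitm3 (-0.20 ± 0.18, edgeR quasi-likelihood adjusted p = 0.498) and Ifit3 (-0.33 ± 0.15, edgeR quasi-likelihood adjusted p = 0.136), as log2 fold changes with SE. Among the transcription factors Sp100 passed at -0.49 ± 0.17, and Irf9 was at -0.33 ± 0.14, Stat2 at -0.19 ± 0.08, Irf7 at -0.30 ± 0.21 and Irf1 at -0.05 ± 0.13. Within females alone 5 of the 42 were lower, where 2.75% of all genes tested were, and within males alone 0, where 0.354% were. Without the sex term 11 of the 42 were lower, where 7.62% of all genes were, and without the 3 Rn45s-rich libraries 13, where 5.66% were and Eif2ak2, Bst2, Slfn2 and Sp100 no longer passed. For 0 of the 42 did all 6 Trem2KO libraries lie below or above all 6 WT libraries, where 5.23% and 5.80% of tested genes did. With only males, 38 of 42 log2 fold changes lay below 0, with a median of -0.29.

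The knockouts were compared with each other directly, since a gene that passes in one and not in the other is not thereby shown to differ. Irf1, Lgals3bp and Gbp7 passed, 2 lower and 1 higher in Plcg2KO than in Trem2KO, where 8.82% of tested genes were lower and 7.63% higher. The share of the 42 that passed, 7.14%, was below the 16.5% of all tested genes. The median log2 fold change was -0.14. For 0 of the 42 did the knockouts lie wholly apart, where 9.25% of tested genes had all Plcg2KO libraries below and 9.60% all above those of Trem2KO.

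Irf1, a factor that responds to type II interferon in particular, had 8.18, 9.38 and 10.5 CPM in Trem2KO and 5.78, 6.60 and 9.01 in Plcg2KO, a log2 fold change of -0.42 ± 0.13 (edgeR quasi-likelihood adjusted p = 0.0297). Lgals3bp had 31.2, 52.5 and 65.7 CPM in Trem2KO, and was lower in Plcg2KO by a log2 fold change of -0.45 ± 0.14 (edgeR quasi-likelihood adjusted p = 0.0309). Gbp7, a guanylate-binding protein, had 3.88, 4.71 and 5.67 CPM in Trem2KO and 4.51, 6.50 and 10.3 in Plcg2KO, a log2 fold change of 0.50 ± 0.16 (edgeR quasi-likelihood adjusted p = 0.0327). The ranges overlapped for all 3 genes. Log2 fold changes tracked GC content across genes in this comparison (Spearman rho = -0.644 over 15693 genes, which are not independent replicates). Over the same genes rho was -0.316 in Plcg2KO, 0.353 in Trem2KO and 0.348 in Plcg2HET against WT, and -0.501 in Plcg2KO against Plcg2HET. For Plcg2KO against Trem2KO, with offsets for GC content and length, 0 of these 3 genes passed and Ifitm3 alone did, at -0.51. Ifi27 (-0.35 ± 0.15), Ifitm3 (-0.50 ± 0.18) and Ifit3 (-0.20 ± 0.15) were the most abundant per kilobase of those that did not pass.

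In Plcg2HET, 3 of the 42 genes were lower than in WT and 5 higher, where 7.13% of tested genes were lower, 10.9% higher and 18.0% either. The shares of the 42 were thus near the background in both directions. The median log2 fold change was -0.02, with 23 values below 0 and 19 above. In 0 of the 42 did Plcg2HET and WT lie wholly apart, where 1.64% of tested genes lay below and 1.92% above. Of the microglia markers 2 were lower and 2 higher, and their summed level ran from 1639 to 2885 CPM. Without the 3 Rn45s-rich libraries 1 gene passed, Gbp4, where 4.89% of all genes did, and without Plcg2HET F1 alone also 1, where 11.9% did.

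Gbp4, a guanylate-binding protein at chr5:105115767-105139586 in mm10, had 1.20, 2.41 and 3.87 CPM in WT and 0.780, 0.994 and 1.35 in Plcg2HET. A single WT male lay inside the Plcg2HET range. Its log2 fold change was -1.22 ± 0.24 (edgeR quasi-likelihood adjusted p = 0.00144), and -1.13 without the 3 Rn45s-rich libraries. Cmpk2 was lower by -0.34 ± 0.11 (edgeR quasi-likelihood adjusted p = 0.04) and Herc6 by -0.42 ± 0.14 (edgeR quasi-likelihood adjusted p = 0.041) as log2 fold changes, with 16.5 to 32.1 CPM and 6.95 to 15.2 CPM in Plcg2HET, ranges that overlapped WT. Neither passed without the 3 Rn45s-rich libraries, where Cmpk2 was at -0.20 and Herc6 at -0.39.

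Of the 5 genes that were higher in Plcg2HET, Ifitm3, Ifit3, Oasl2 and Lgals3bp had their highest levels in the females F1 and F3, while Samhd1 was highest in F1 and the male M1. Ifitm3 had 10.7, 17.4 and 25.2 CPM in WT and 15.5, 24.8 and 39.8 in Plcg2HET, a log2 fold change of 0.59 ± 0.18 (edgeR quasi-likelihood adjusted p = 0.0255). Ifit3 was at 0.44 ± 0.15 (edgeR quasi-likelihood adjusted p = 0.0375), Oasl2 at 0.60 ± 0.21 (edgeR quasi-likelihood adjusted p = 0.0463), Lgals3bp at 0.39 ± 0.14 (edgeR quasi-likelihood adjusted p = 0.0474) and Samhd1 at 0.24 ± 0.08 (edgeR quasi-likelihood adjusted p = 0.0355). None of these 5 passed without the 3 Rn45s-rich libraries: Ifitm3 was at 0.38, Ifit3 at 0.42, Oasl2 at 0.43, Lgals3bp at 0.30 and Samhd1 at 0.24, with edgeR quasi-likelihood adjusted p from 0.113 to 0.305. The most abundant genes per kilobase that did not pass were Ifi27 (-0.03 ± 0.15), Irgm1 (-0.20 ± 0.12) and Bst2 (-0.27 ± 0.24).

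Set against Plcg2HET, with the same Plcg2KO libraries as above, 28 of the 42 genes were lower in Plcg2KO and 3 higher. The background was large here, with 20.2% of tested genes lower, 15.0% higher and 35.2% either. The median log2 fold change was -0.66, against -0.00 for all tested genes. Every Plcg2KO library lay below every Plcg2HET library for 10 genes (Ifit3, Oas1a, Ifitm3, Slfn2, Dhx58, Irf9, Usp18, Ifi27, Ifi35 and Lgals3bp), an arrangement seen in 4.44% of tested genes. Of the microglia markers 20 of 22 were lower, with a median of -0.95; their part in the result was not tested.

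Lgals3bp had 63.0, 81.4 and 147 CPM in Plcg2HET, and its log2 fold change was -1.30 ± 0.14 (edgeR quasi-likelihood adjusted p = 1.99e-07). Irf9 had 19.7, 23.2 and 41.6 CPM in Plcg2HET, a log2 fold change of -1.09 ± 0.14 (edgeR quasi-likelihood adjusted p = 4.15e-06). Oas1a had 2.28, 3.05 and 9.05 CPM in Plcg2HET and 0.499, 0.771 and 1.86 in Plcg2KO, a log2 fold change of -1.97 ± 0.28 (edgeR quasi-likelihood adjusted p = 1.16e-05). For these 3 the groups did not overlap, and the upper 2 values of Plcg2HET came from F1 and F3. Without the 3 Rn45s-rich libraries the log2 fold changes were -1.19 for Lgals3bp, -0.94 for Irf9 and -1.76 for Oas1a, and all 3 passed. Ifitm3 (-1.29 ± 0.19), Oasl2 (-1.5 ± 0.22), Ifit3 (-0.96 ± 0.15) and Ifi35 (-1.20 ± 0.20) followed, as log2 fold changes with SE. Gbp4 went the other way, with every Plcg2KO library (1.37, 3.13 and 6.09 CPM as lowest, median and highest) above every Plcg2HET library, an arrangement seen in 4.87% of tested genes, and a log2 fold change of 1.65 ± 0.24 (edgeR quasi-likelihood adjusted p = 1.65e-05). Gbp7 (0.60 ± 0.16) and Herc6 (0.44 ± 0.14) were also higher in Plcg2KO. Irgm1 (-0.25 ± 0.12), Cmpk2 (0.24 ± 0.11) and Samhd1 (-0.15 ± 0.08) were the most abundant per kilobase that did not pass. Without the 3 Rn45s-rich libraries 21 genes were lower and 2 higher, where 10.8% of all genes were lower and 8.04% higher, and Herc6 no longer passed.

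**Figure D3:**
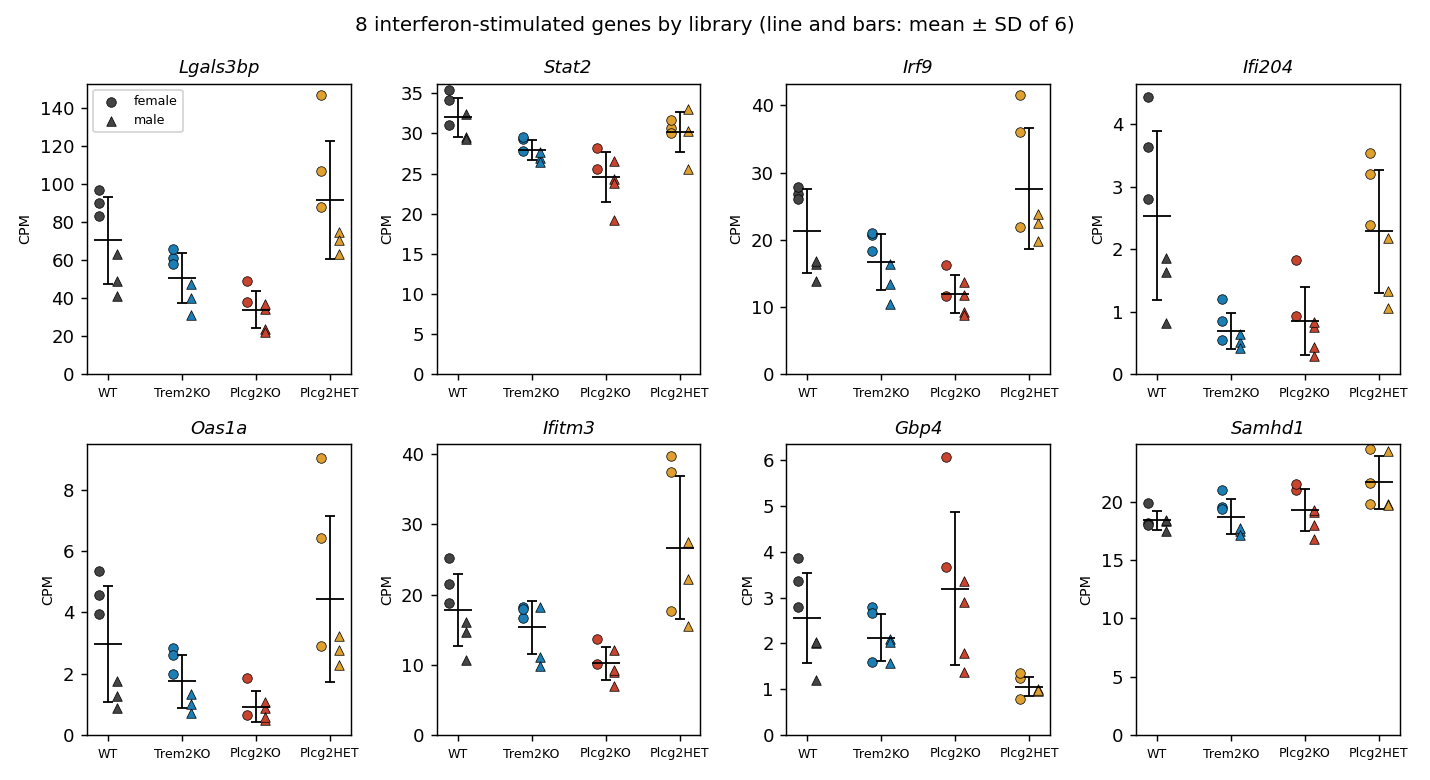
Each point is 1 library (circles female, triangles male) in CPM from 0, with the mean and SD of 6 libraries per genotype, for 8 of the genes. Stat2 in Plcg2KO lies wholly below WT, Gbp4 in Plcg2HET is at 0.780 to 1.35 CPM, Samhd1 overlaps among all 4 genotypes, and circles lie above triangles for Lgals3bp in WT, Trem2KO, Plcg2KO and Plcg2HET.

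The comparison of females with males was added after the libraries' values had been seen. In the fit with a mean for each genotype, 29 of the 42 genes were higher in females than in males and 0 were lower, where 2.27% of tested genes were higher, 0.0981% lower and 2.37% either. The median log2 difference was 0.59. Without the 3 Rn45s-rich libraries it was 0.49, against -0.01 for all tested genes. Female means exceeded male means for 40 genes in WT, 40 in Trem2KO, 39 in Plcg2KO and 42 in Plcg2HET. Plcg2KO had only 2 females, and its F2 was the highest library of that genotype for 38 of the 42. Of the 22 microglia markers, 18 were higher in females, as were Trem2 (0.71 ± 0.12) and Plcg2 (0.47 ± 0.13); their part in the result was not tested.

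Lgals3bp was higher in females by a log2 difference of 0.69 ± 0.10 (edgeR quasi-likelihood adjusted p = 0.000132). Gbp2, a guanylate-binding protein that acts on pathogen vacuoles, was higher by 0.63 ± 0.09 (edgeR quasi-likelihood adjusted p = 0.000178) and Rtp4 by 0.88 ± 0.13 (edgeR quasi-likelihood adjusted p = 0.00019). Ifit3 averaged 35.8 CPM in 3 WT females and 18.2 CPM in 3 WT males, with ranges of 29.4 to 39.3 and 13.3 to 21.3 CPM. Without WT F1, the females averaged 34.1 CPM for Ifit3 and 4.65 CPM for Oas1a. Oas1a averaged 4.62 CPM in WT females and 1.31 CPM in WT males, with a log2 difference over all genotypes of 1.27 ± 0.19. Oasl2 (1.0 ± 0.15), Zbp1 (1.53 ± 0.25) and Usp18 (1.03 ± 0.18) completed the 8 with the smallest p. Ifi27 (0.35 ± 0.11), Bst2 (0.57 ± 0.18) and Cmpk2 (0.04 ± 0.08) were the most abundant per kilobase that did not pass. By role 11 of 16 antiviral effectors, 6 of 7 GTPases, 6 of 8 other interferon-induced genes, 3 of 5 transcription factors, 2 of 3 genes of the ISG15 system and 1 of 3 sensors were higher. Without the 3 Rn45s-rich libraries, all of them female, 13 genes were higher, where 0.831% of all genes were.

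**Figure D4:**
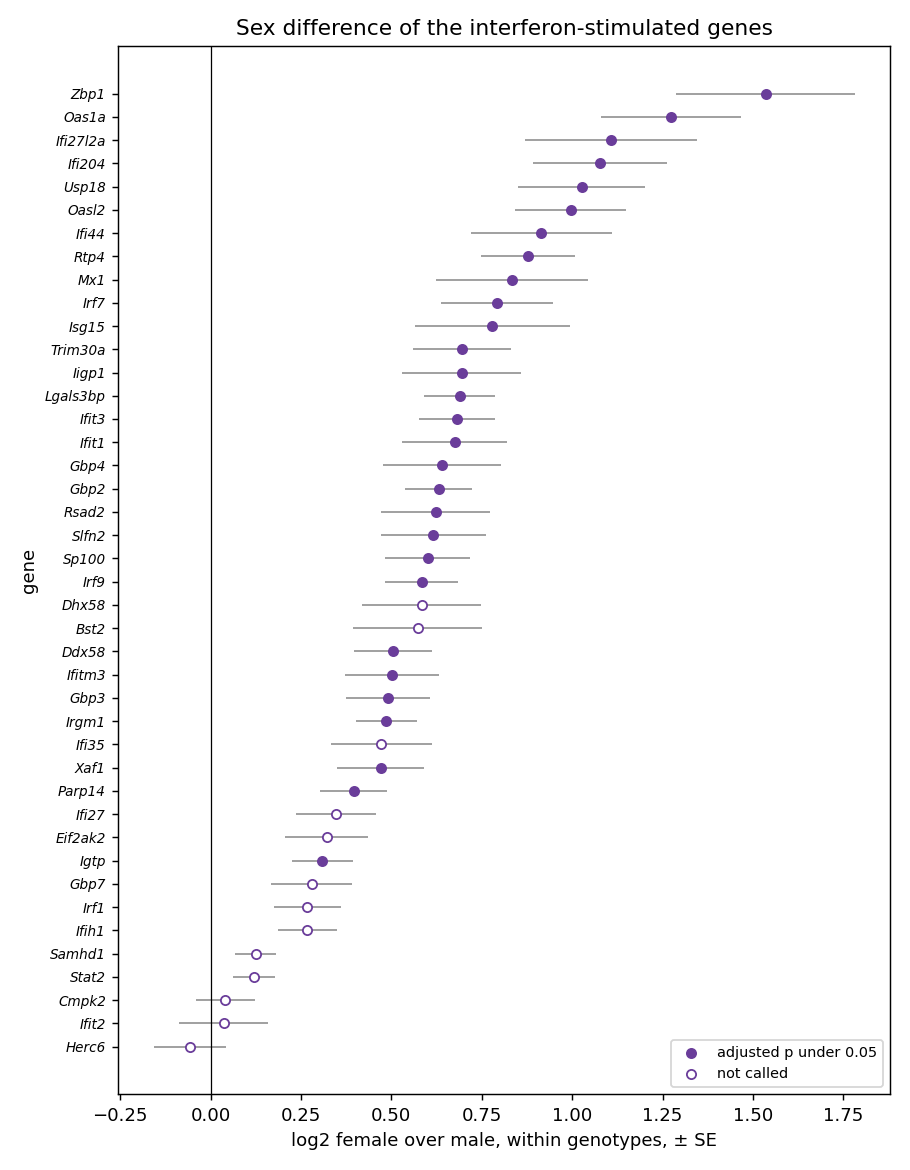
Points give the log2 difference of females over males within genotypes for each of the 42 genes and bars its SE, with filled points for an edgeR adjusted p under 0.05. The values run from -0.06 for Herc6 to 1.53 for Zbp1, and 41 of 42 lie above 0.

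Whether the genotype effects differed between the sexes was tested as an interaction. For none of the 42 genes, and for 0 of all tested genes, did the difference pass edgeR's quasi-likelihood test in Plcg2KO, Trem2KO or Plcg2HET against WT. At an unadjusted p under 0.05 there were 2 of the 42 genes in Plcg2KO and 0 in the other genotypes, against 7.79%, 2.91% and 5.44% of tested genes in Plcg2KO, Trem2KO and Plcg2HET.

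Within a genotype the same libraries were often the extremes. Within WT, the male M3 was lowest for 36 of the 42 and the females F3 and F1 were highest for 23 and 12. Within Plcg2KO, the female F2 was highest for 38 and the male M3 lowest for 24. The median over the 42 genes of log2(CPM + 0.1) against the WT mean was -1.19 in Plcg2KO M3 and -0.10 in Plcg2KO F2, and -0.68 in WT M3 and 0.50 in WT F3. The summed microglia markers were 1382 CPM in Plcg2KO F2 and 833 to 1047 CPM in the other Plcg2KO libraries; their part in the spread was not tested. The highest library of a gene exceeded the lowest of the same genotype by a median of 2.43 times in WT, 1.90 in Trem2KO, 2.28 in Plcg2KO and 2.32 in Plcg2HET.

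Of the interferon genes, 10 were looked at (Ifnb1, Ifna1, Ifna2, Ifna4, Ifna5, Ifnk, Ifne, Ifng, Ifnl2 and Ifnl3), and the other Ifna genes were not. These 10 held 31 counts in total over the 24 libraries, 18 of them Ifnb1, in 5 libraries, and 6 genes had no count, so none was tested. Among 6 receptor genes, Il10rb, a subunit shared with the type III interferon receptor, was lower in Plcg2KO (-0.66 ± 0.10) and Trem2KO (-0.58 ± 0.10) as log2 fold changes against WT. Ifngr2, a subunit of the type II receptor, was lower in Plcg2HET (-0.35 ± 0.08) and was at -0.04 ± 0.08 in Plcg2KO and -0.11 ± 0.08 in Trem2KO. Ifnar1 had medians of 47.9 CPM in WT, 50.8 in Trem2KO, 48.1 in Plcg2KO and 40.3 in Plcg2HET, and its log2 fold changes against WT were 0.08 ± 0.08, 0.01 ± 0.08 and -0.17 ± 0.08 in the last 3. Ifnar2 was at -0.28 ± 0.13 in Plcg2KO and -0.14 ± 0.13 in Trem2KO, and Ifngr1 at -0.14 ± 0.10 and -0.29 ± 0.10. None of these 3 genes passed against WT.

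Among 11 signal transducers, Ptpn6, the phosphatase SHP-1, had medians of 19.7 CPM in WT, 9.39 in Trem2KO and 5.38 in Plcg2KO, with log2 fold changes of -1.69 ± 0.16 in Plcg2KO and -1.03 ± 0.16 in Trem2KO. Tyk2 (-0.53 ± 0.15) and Socs3 (-0.56 ± 0.17), a feedback inhibitor, were lower in Plcg2KO, which made 3 of the 11 lower there and 1 in Trem2KO. Of all tested genes, 7.63% were lower in Plcg2KO and 8.16% in Trem2KO.

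Of 17 further sensors and adaptors tested, 7 were lower in Plcg2KO than in WT and 5 in Trem2KO, with 2 higher in Trem2KO. The shares of all tested genes were 7.63% lower in Plcg2KO, and 8.16% lower and 7.56% higher in Trem2KO. Mb21d1, which encodes cGAS, the sensor of cytosolic DNA, was lower in Plcg2KO (-0.72 ± 0.20) and Trem2KO (-0.85 ± 0.20), and Tmem173, which encodes its adaptor STING, was lower in Plcg2KO (-0.69 ± 0.14). Unc93b1, the chaperone of endosomal Toll-like receptors, was lower in both (-0.78 ± 0.12 and -0.48 ± 0.12), and Adar, which edits double-stranded RNA, was higher in Trem2KO (0.52 ± 0.09). Of 8 other interferon regulatory factor genes 3 were lower in Plcg2KO, where Irf8, a lineage factor of microglia, was at -1.29 ± 0.13, Irf5 at -0.91 ± 0.18 and Irf3 at -0.46 ± 0.15. Irf8 was at -1.18 ± 0.13 in Trem2KO and 0.30 ± 0.13 in Plcg2HET, where it did not pass.

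A further 64 interferon-induced genes outside the 42 were tested. Like the 42, they were chosen with earlier results of these data known. In Plcg2KO 25 were lower than in WT and 2 higher, where 7.63% of all tested genes were lower and 5.44% higher. The median log2 fold change was -0.43, and the lower genes were led by Sp110 (-1.26 ± 0.16), Phf11b (-1.87 ± 0.26) and Parp9 (-0.73 ± 0.12). The 2 higher were Tgtp1 (1.02 ± 0.30), an interferon-induced GTPase, and N4bp1 (0.42 ± 0.10). In Trem2KO 17 were lower and 4 higher, where 8.16% of all tested genes were lower and 7.56% higher. The median was -0.35, and the lower genes were led by Epsti1 (-1.33 ± 0.21), Trim12a (-0.97 ± 0.15) and Slfn5 (-0.85 ± 0.14). In females 25 were higher than in males and 0 lower, where 2.27% of all tested genes were higher and 0.0981% lower. 

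**Figure D5:**
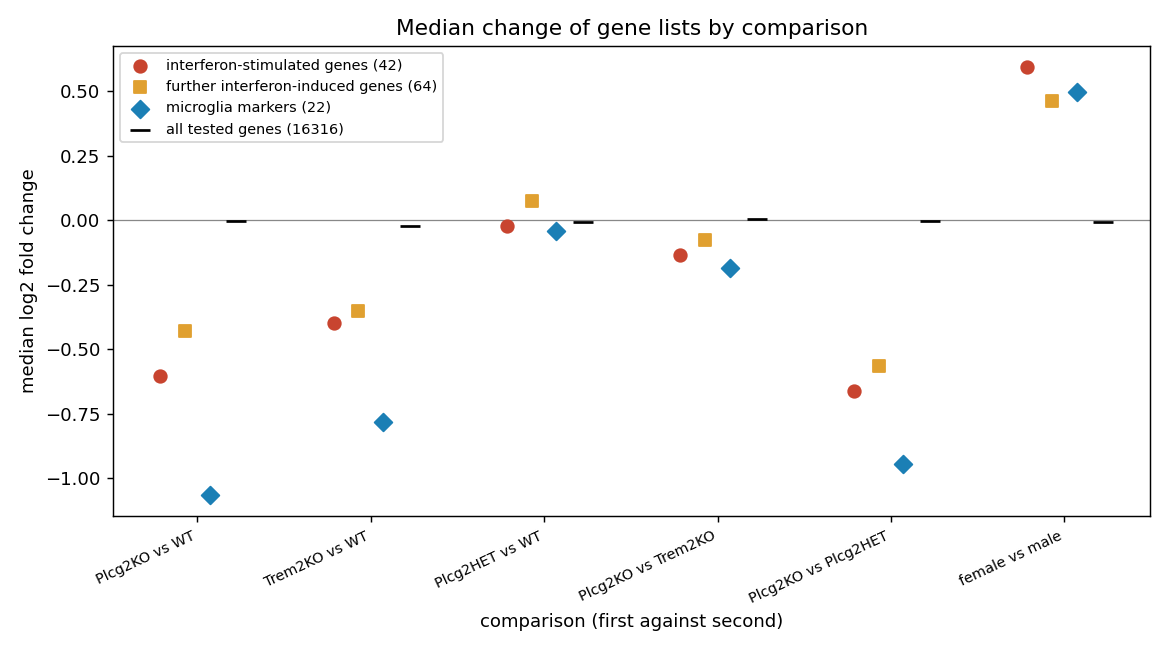
Symbols give the median log2 fold change of the 42 genes, the 64 further interferon-induced genes, the 22 microglia markers and all tested genes in each of 6 comparisons. Medians of the 3 lists are below 0 in Plcg2KO and Trem2KO against WT (microglia markers -1.07 and -0.78), near 0 in Plcg2HET, and above 0 in females against males.

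Markers of other cells were read beside these results. Of all tested genes, 7.63% were lower and 5.44% higher in Plcg2KO than in WT. The same shares were 8.16% and 7.56% in Trem2KO, and 7.13% and 10.9% in Plcg2HET. Endothelial markers were lower in Plcg2KO than in WT for 7 of 10, with a summed level of 106 to 141 CPM against 139 to 238 CPM, and for 0 of 10 in Trem2KO. Border macrophage markers were higher for 4 of 8 in Plcg2KO, 5 of 8 in Trem2KO and 6 of 8 in Plcg2HET. Meningeal fibroblast markers were higher than in WT for 6 of 8 in Plcg2KO, 6 of 8 in Trem2KO and 5 of 8 in Plcg2HET. Their summed level ran from 116 to 163 CPM in WT, 188 to 224 in Trem2KO, 180 to 234 in Plcg2KO and 171 to 237 in Plcg2HET, so WT lay wholly below the others. Of 3 monocyte and neutrophil markers tested, S100a9 was higher in Plcg2KO (2.46 ± 0.70 as a log2 fold change, edgeR quasi-likelihood adjusted p = 0.0192), with the 8 markers of that list summing to at most 2.19 CPM. Oligodendrocyte markers were lower for 1 of 8 in Plcg2KO, 1 in Trem2KO and 2 in Plcg2HET, with sums of 4588 to 5265 CPM in WT and 3766 to 4768 CPM over the other genotypes. Of T, NK and B cell markers 0 of 6 passed in any of the 6 comparisons. The part of these cells in the results was not tested.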

How the data were processed

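Cortex RNA (100 ng, mRNA library kit, per the labels) was sequenced from 24 mice. Reads were aligned with STAR 2.7.10a to mm10 and counted with featureCounts 2.0.3, per the submitters' processing notes; the gene counts are those the authors deposited. A second table the authors deposited holds expected counts, TPM and FPKM by an unstated tool; its expected counts were rounded and used as an alternative, and its TPM and FPKM were not used. Replicates are separate mice by their labels. Genes with at least 10 counts by filterByExpr were fitted in edgeR 4.0.16 (R 4.3.3, quasi-likelihood, robust, TMM), with a mean per genotype and a sex term over all libraries, and p was adjusted by Benjamini-Hochberg over 16316 genes (threshold 0.05). CPM used the same TMM factors. The members and lists were chosen with earlier results of these data known. Named genes were the 8 with the smallest p per comparison, called genes against the majority and the 3 most abundant uncalled per kilobase. The fit was tested on simulated data. Alternatives included DESeq2 1.42.0, RLE factors, other filters, no sex term, a replicate block, single sexes, fewer libraries, and GC and length offsets. The sex comparison was added after seeing the data. Coordinates are those of the deposited table. Some results are not reported here.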

Additional observations from a re-analysis of the deposited data

Results flagged for a closer look

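Among 168 sets of 6 libraries (42 genes in 4 genotypes), 5 had a library that stood apart from the rest, and chance would give about 8.4 (5%). Of these, 4 were in the female F2 of Plcg2KO. Usp18 was at 3.10 CPM in that library and 0.856 to 1.55 CPM in the others. Igtp was at 11.8 CPM against 5.87 to 7.67 CPM. Irgm1 was at 26.4 CPM against 13.8 to 17.4 CPM. Rtp4 was at 5.73 CPM against 2.07 to 3.42 CPM. The last was Igtp in the female F1 of Plcg2HET, at 13.2 CPM against 9.64 to 11.0 CPM. Without Plcg2KO F2, 19 of the 42 genes were higher in females than in males, where 1.64% of all genes were.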

How the results depend on the processing

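No called gene changed sign under any alternative run. The genes called number 26 (Plcg2KO against WT), 17 (Trem2KO against WT), 8 (Plcg2HET against WT), 3 (Plcg2KO against Trem2KO), 31 (Plcg2KO against Plcg2HET) and 29 (sex). The shares of all tested genes called were 13.1%, 15.7%, 18.0%, 16.5%, 35.2% and 2.37%. In males alone they were 1, 0, 0, 0 and 17, and in females alone 15, 5, 1, 0 and 20 for the 5 genotype comparisons in that order, with fewer libraries in each fit. Trem2KO against WT gave 11 without the sex term, where 14.8% of all genes were called. Plcg2HET against WT gave 5 with no count filter, 3 without the sex term, 1 with only the 2 groups and 1 without the 3 Rn45s-rich libraries. Of all genes, 12.7%, 17.2%, 4.68% and 4.89% were called there, in that order. Plcg2KO against Trem2KO gave 5 with a mean CPM of at least 1, 1 without the sex term and 13 with only the 2 groups. It gave 9 with DESeq2, 5 without the Rn45s-rich libraries and 1 with GC and length offsets. Calls over all genes for this comparison also rose with only the 2 groups. The larger counts alone therefore do not show a greater difference in the interferon-stimulated genes than in all genes. The sex comparison gave 13 without the Rn45s-rich libraries, where 0.885% of all genes were called. The cause of these changes was not tested. Leaving out 1 library gave 19 to 27, 12 to 21, 1 to 11, 0 to 7, 28 to 34 and 19 to 33.

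Over all genes, the calls (2133, 2565, 2936, 2684, 5746 and 387) became 3557, 4780, 736, 6712 and 3512 with only the 2 groups, 369, 72, 5, 11 and 1581 in males alone, and 1011, 963, 419, 6 and 1664 in females alone. GC and length offsets gave 3226 for Plcg2KO against WT and 1175 for Plcg2KO against Trem2KO. Without the Rn45s-rich libraries Plcg2HET against WT gave 807, Plcg2KO against Plcg2HET 3113 and sex 146. Leaving out 1 library gave 1441 to 2267, 1662 to 2597, 1957 to 4369, 769 to 2796, 4475 to 7509 and 283 to 582.

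Animals share sex-and-number codes across genotypes, with no label saying that a code marks a shared litter or batch. The correlation of same-coded deviations was over 0.1 in 4 of 5 pairs for Plcg2KO and WT (-0.05 to 0.21), 5 of 6 for Trem2KO and WT (0.01 to 0.35), 3 of 6 for Plcg2HET and WT (-0.16 to 0.18), 1 of 5 for the knockouts (0.01 to 0.21) and 4 of 5 for Plcg2KO and Plcg2HET (-0.04 to 0.17). Libraries matched their own code best in 2, 1, 0, 1 and 4 pairs. The codes were not treated as pairs, since no comparison had every pair over 0.1; whether some animals shared a litter or batch was not tested. A replicate block gave 26, 15, 4, 1 and 31 of the 42 genes, and 1073 genes for Plcg2KO against Trem2KO. With that block, 9.70%, 13.5%, 14.8%, 6.58% and 28.7% of all genes were called. Every alternative and left-out library kept 1 of 26 (Lgals3bp), 0 of 17, 0 of 8, 0 of 3, 14 of 31 and 12 of 29 calls. The alternatives for the genotype comparisons include males alone. That fit called 1, 0, 0 and 0 of the 42 in the comparisons with WT and between the knockouts. The kept counts there could be no higher. Every left-out library, without the other alternatives, kept 18 of 26, 10 of 17, 1 of 8, 0 of 3, 27 of 31 and 19 of 29 calls.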
